A study of Drosophila melanogaster with 6 samples.

Results

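Cell fitness genes were followed in wing discs that overexpress Nrf2 (CncC in the fly). The 7 genes were chosen by name and matched to the identifiers of the count files by symbol: Myc, Max and Mnt of the Myc network, the fitness reporter gene fwe, the loser gene mahj, and the ligand and receptor genes sas and Ptp10D. All 7 were found among the 13955 genes counted, and all 7 had enough counts to be tested. RNA was sequenced from 3 Nrf2 overexpression and 3 control samples of wandering L3 female larvae kept at 28 °C. Nrf2 overexpression larvae carried hs-FLP, a tubulin-promoter Gal4 with UAS-CD8-GFP, UAS-nrf2 and tub-Gal80ts. Control larvae carried, by the study's methods, the same transgenes other than UAS-nrf2, whereas their sample labels give wild type and yw. An effect of strain, driver or Gal80ts could not be told apart from that of Nrf2 if the labels are right. The driver is not limited to clones, so the libraries describe whole discs and not a mosaic of competing cells.

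Cell competition is the elimination of viable but less fit cells, called losers, by fitter neighbours, called winners. Myc is a basic helix-loop-helix leucine zipper transcription factor that binds DNA with its partner Max and raises ribosome production and growth; Mnt binds Max as well and opposes Myc. In the wing disc, clones with more Myc than their neighbours are known to outcompete them. The membrane protein Flower, made by fwe, is known to mark winners and losers by its splice isoforms. Mahj, a substrate receptor of a Cul4 ubiquitin ligase that binds the polarity protein Lgl, makes cells losers when it is lost. Sas is a surface ligand and Ptp10D its receptor tyrosine phosphatase, through which wild type cells remove polarity-deficient neighbours.

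The total count lay between 16464410 and 16682764 in the 6 libraries. The overexpressed gene cnc had 84044, 147169 and 172120 counts in Nrf2 overexpression replicates 1 to 3, against 1983, 1777 and 1848 counts in the control replicates, so the genotype labels held for this gene in all 6 libraries. Of the 6 wing disc identity genes listed, 4 (nub, vg, en and hth) could be matched to an identifier by name and each had at least 1887 counts in every library. Summed normalized counts of 5 fat body markers ran from 157 to 1299 in Nrf2 overexpression and from 149 to 7267 in control, with the highest value in control replicate 2. Those of 5 haemocyte markers ran from 241 to 324 in Nrf2 overexpression and from 182 to 273 in control, a sum made up mostly of Pxn. Pxn was called higher, with a log2 fold change of 0.54 (edgeR adjusted p = 0.0127). Hml averaged 22 normalized counts in Nrf2 overexpression and 35.7 in control, without being called. None of NimC1, eater and He passed 18 counts in any library. Of these, eater and He averaged lower and NimC1 higher in Nrf2 overexpression. Of 4 adult muscle precursor markers, 3 were lower in Nrf2 overexpression, where 31.6% of all genes tested were lower. The sums of the 4 markers were 1674 to 2083 in Nrf2 overexpression against 2513 to 2784 in control. Of 6 ecdysone-response genes tested, 4 were lower and 1 was higher in Nrf2 overexpression, where 31.6% of all genes were lower and 30.9% higher. Their log2 fold changes ran from -7.14 for Hr3 to 2.77 for ftz-f1. The tracheal gene trh was not called, at 0.23. The part of these markers and of the ecdysone-response genes in the values below was not tested. In bulk tissue, fewer cells of a type and less RNA per cell cannot be told apart.

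Of the 7 cell fitness genes, Myc, sas and Ptp10D were higher and fwe and Max lower in Nrf2 overexpression, while Mnt and mahj did not pass the test. A gene was called higher or lower when its adjusted p-value was under 0.05 in the quasi-likelihood test of edgeR, where p-values were adjusted over the 8361 genes tested by the method of Benjamini and Hochberg. SE is the standard error of the log2 fold change. By this rule 30.9% of all genes tested were higher and 31.6% lower, so that 3 higher and 2 lower of 7 is close to the background. The median log2 fold change was 0.34 over the 7 genes and -0.01 over all genes tested. With the trend of fold change with exon length removed, these medians were 0.11 and -0.02. The normalized counts of the genotypes did not overlap for 5 of the 7 genes, against 68.4% of all genes tested. With a fold change of at least 1.4 also required, Myc, sas, Ptp10D and fwe remained, where 20.5% of all genes were higher and 21.1% lower.

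**Figure D1:**
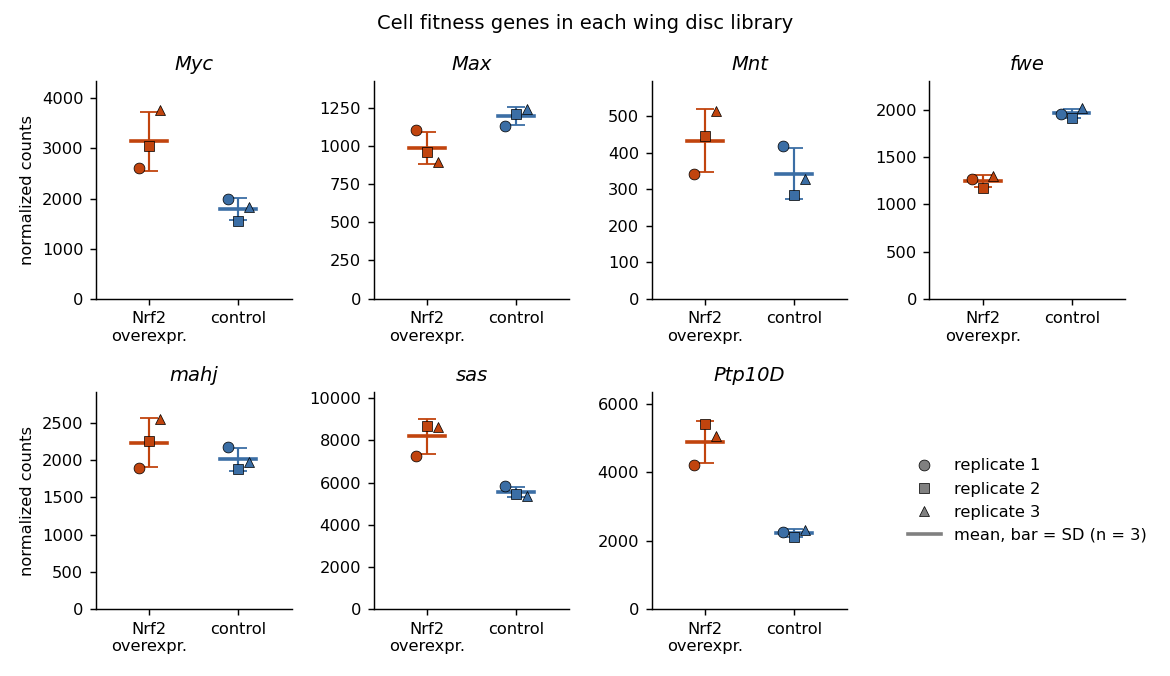
Normalized counts (y axis, from 0) of the 7 cell fitness genes in the 3 Nrf2 overexpression libraries (left of each panel) and the 3 control libraries (right), with the mean as a line and the SD as a bar; marker shapes give the replicate number. All Nrf2 overexpression values of Myc, sas and Ptp10D lie above, and all those of Max and fwe below, the control values, whereas Mnt and mahj overlap.

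Myc (FBgn0262656) lies on the plus strand of chromosome X of BDGP6.54, from 3373159 to 3391697. It had 2604, 3045 and 3770 normalized counts in Nrf2 overexpression replicates 1 to 3, against 1984, 1558 and 1827 in the control replicates. Every Nrf2 overexpression library was above every control library, and the spread was wider in Nrf2 overexpression. The mean was 3140 ± 589 in Nrf2 overexpression and 1790 ± 215 in control (SD, n = 3 each), a 1.75-fold difference with a 95% interval from 1.41 to 2.18. The log2 fold change was 0.81 (SE 0.14, edgeR adjusted p = 0.000776), higher than that of 88.9% of the genes tested. Exons of Myc share 3754 bases with exons of CG12535 on the opposite strand, which had 58 to 69 counts in Nrf2 overexpression and 66 to 133 in control. They also share 1859 bases with lncRNA:CR44999 on the same strand, which was not analysed here. Whether the counting used strand is not given in the sources used here, and reads of the shared stretches cannot be assigned.

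Max, the DNA-binding partner of Myc, was lower where Myc was higher. Max (FBgn0017578, chromosome 3L from 19262232 to 19264184, minus strand) had 1101, 958 and 895 normalized counts in Nrf2 overexpression and 1130, 1210 and 1243 in control. The groups were close together, with the highest Nrf2 overexpression library just below the lowest control library. Its mean was 985 ± 105 in Nrf2 overexpression and 1194 ± 58.6 in control (SD, n = 3 each), with a log2 fold change of -0.28 (SE 0.09, edgeR adjusted p = 0.0231). The fold change was 0.824, with a 95% interval from 0.715 to 0.95. This call was lost in 4 of the 6 fits that left out a single library, namely control replicate 2 or 3 or Nrf2 overexpression replicate 2 or 3, with log2 fold changes from -0.27 to -0.2, and also with total counts only (-0.22, edgeR adjusted p = 0.0619), with a replicate block (-0.28, edgeR adjusted p = 0.0611) and with the trend of fold change with exon length removed (-0.13, edgeR adjusted p = 0.082). Exons of Max overlap those of Mettl5, Bet1 and CG42374 on the opposite strand, each of which was called lower. Bet1, which shares 206 bases and encodes a vesicle transport protein, fell with a log2 fold change of -0.90 (edgeR adjusted p = 4.21e-05). The log2 fold change was -0.43 for Mettl5 (edgeR adjusted p = 0.0038) and -0.38 for CG42374 (edgeR adjusted p = 0.0057). As for Myc, reads of the shared stretches cannot be assigned.

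Mnt (FBgn0023215, chromosome X from 3671801 to 3701672, plus strand), the repressor that shares Max with Myc, had the fewest counts of the 7 genes. The normalized counts were 341, 445 and 514 in Nrf2 overexpression and 418, 283 and 328 in control. Values of the genotypes overlapped, since control replicate 1 exceeded Nrf2 overexpression replicate 1. The log2 fold change was 0.34 (SE 0.18, 95% interval -0.06 to 0.73, edgeR adjusted p = 0.121). It passed the threshold without control replicate 1 (log2 fold change 0.50, edgeR adjusted p = 0.0302) and without Nrf2 overexpression replicate 1 (0.49, edgeR adjusted p = 0.0269).

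The balance within the network was compared as ratios of counts per kb of exon in the same library. The Max to Myc ratio was 3.01, 2.24 and 1.69 in Nrf2 overexpression replicates 1 to 3, and 4.05, 5.53 and 4.84 in the control replicates. Every Nrf2 overexpression library was thus below every control library. For Max to Myc this and its permutation p follow from the values above, where Max was lower and Myc higher in every Nrf2 overexpression library. It is therefore not a separate result, and other gene pairs were not compared. On the log2 scale the ratio was 1.17 ± 0.42 in Nrf2 overexpression and 2.25 ± 0.22 in control (SD, n = 3 each), a difference of -1.08. The Mnt to Myc ratio was 0.264, 0.294 and 0.275 in Nrf2 overexpression, and 0.424, 0.365 and 0.362 in control, so that Mnt was also lower relative to Myc in every Nrf2 overexpression library. Its log2 difference was -0.46. With the trend of each library with exon length removed, the log2 difference was -0.52 for Max to Myc and -0.27 for Mnt to Myc, and the libraries of the genotypes still did not overlap. The exact two-sided permutation p was 0.1 for each of the 3 ratios compared, and 0.1 after Benjamini-Hochberg adjustment over them, which is the smallest value that 3 libraries against 3 can give.

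Genes that work with or on Myc moved in both directions. Of 12 such genes, 6 were higher, 2 were lower and 4 were not called, with 30.9% of all genes tested higher and 31.6% lower. Their median log2 fold change was 0.34 against -0.01 over all genes tested, and 0.00 against -0.02 with the length trend removed. The largest rise was that of puf, a deubiquitinase known to stabilise Myc, with 3254 ± 677 normalized counts in Nrf2 overexpression and 1911 ± 85.0 in control (SD, n = 3 each) and a log2 fold change of 0.77 (SE 0.14, edgeR adjusted p = 0.0011), which was 0.24 with the length trend removed. The lower genes were pont and rept, which encode the paired ATPases Pontin and Reptin that bind Myc; rept was picked once its values were known. The normalized count of pont was 1662 ± 149 in Nrf2 overexpression and 3354 ± 322 in control (SD, n = 3 each), with a log2 fold change of -1.01 (SE 0.10), and that of rept had a log2 fold change of -0.72 (SE 0.10). The most abundant gene that was not called was brat, a translational repressor, at 0.30 (95% interval -0.02 to 0.62).

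Genes of the nucleolus and of RNA polymerase I were lower in Nrf2 overexpression. They are a class that Myc is known to raise in fly tissue. Myc RNA was higher, by 0.81 on the log2 scale, or 0.39 with the length trend removed. Myc protein and activity were not measured, and a link between Myc and these genes was not tested. Of the 12 nucleolar and RNA polymerase I genes, 11 were lower and 1 was not called, where 31.6% of all genes were lower. The list, like the others, was chosen with earlier results of these data known, so this count is not an independent result. Under every other setting tried, 10 or 11 were lower. Their median log2 fold change was -0.75, and they ranged from -1.27 to -0.10. The largest fall was that of nop5, a core protein of box C/D small nucleolar ribonucleoproteins, with 2337 ± 508 normalized counts in Nrf2 overexpression and 5624 ± 507 in control (SD, n = 3 each), and a log2 fold change of -1.27 (SE 0.15, edgeR adjusted p = 7.21e-05). Fib, the methyltransferase of the same particles, had 2833 ± 510 normalized counts in Nrf2 overexpression and 6127 ± 755 in control (SD, n = 3 each), and pit, a helicase gene known as a Myc target, had 1138 ± 166 in Nrf2 overexpression and 2215 ± 176 in control (SD, n = 3 each). Both of these were picked once their values were known. The gene not called was Tif-IA, an RNA polymerase I initiation factor, at -0.10 (95% interval -0.28 to 0.07).

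**Figure D2:**
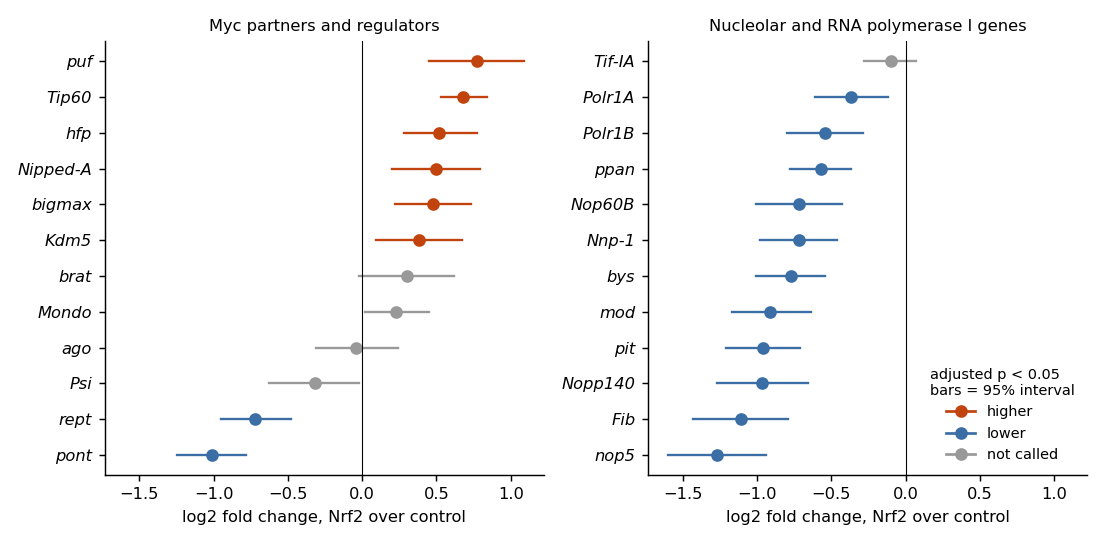
Log2 fold changes (x axis, Nrf2 overexpression over control) of 12 Myc partners and regulators (left) and 12 nucleolar and RNA polymerase I genes (right), with 95% intervals as bars and colours for the call at an adjusted p under 0.05. The nucleolar and RNA polymerase I genes lie below 0, 11 of them called lower, whereas the Myc partners and regulators lie on both sides.

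The Flower gene was lower in Nrf2 overexpression. fwe (FBgn0261722, chromosome 3L from 15810081 to 15816410, minus strand) had 1266, 1176 and 1305 normalized counts in Nrf2 overexpression and 1962, 1920 and 2018 in control. The 3 libraries of each genotype were tight, and the genotypes were far apart. The mean was 1249 ± 66.3 in Nrf2 overexpression and 1967 ± 49.2 in control (SD, n = 3 each), a fold change of 0.635 with a 95% interval from 0.564 to 0.715. The log2 fold change was -0.66 (SE 0.08, edgeR adjusted p = 7.41e-05), and 15.7% of the genes tested had a lower value. Counts were summed over the gene, which has 3 annotated transcripts, so the values do not show which Flower isoforms were lower. azot, which acts downstream of Flower in loser cells, had 1, 0 and 1 counts in Nrf2 overexpression and 0 in every control library, too few for a test or a fold. SPARC, a secreted protein known to protect losers, had a log2 fold change of -0.06 (95% interval -0.41 to 0.29).

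mahj (FBgn0034641, chromosome 2R from 21625030 to 21631422, plus strand) had 1893, 2257 and 2557 normalized counts in Nrf2 overexpression and 2175, 1881 and 1969 in control. The values overlapped, with control replicate 1 above Nrf2 overexpression replicate 1. Its log2 fold change was 0.15 (SE 0.12, 95% interval -0.10 to 0.41, edgeR adjusted p = 0.263), so that no difference was shown in either direction. Without Nrf2 overexpression replicate 1 the log2 fold change was 0.27 (edgeR adjusted p = 0.0372). Of the 6 genes listed with it, 3 were higher and 3 were not called, with 30.9% of all genes higher. The higher genes were the polarity genes l(2)gl, scrib and dlg1, whose loss is known to make cells losers; scrib and dlg1 were picked once their values were known. l(2)gl, which encodes the Mahj-binding protein Lgl, had 6429 ± 694 normalized counts in Nrf2 overexpression and 3586 ± 163 in control (SD, n = 3 each), a log2 fold change of 0.84 (SE 0.10, edgeR adjusted p = 0.000101). The most abundant of the ligase genes, Roc1a, which encodes the RING subunit, was not called at 0.09 (95% interval -0.11 to 0.28).

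The ligand and the receptor of the Sas and Ptp10D system were both higher in Nrf2 overexpression, the receptor by more. sas (FBgn0002306, chromosome 3R from 7162808 to 7183702, plus strand) had 7248, 8679 and 8658 normalized counts in Nrf2 overexpression and 5851, 5444 and 5378 in control. Ptp10D (FBgn0004370, chromosome X from 11622015 to 11677338, plus strand) had 4199, 5399 and 5045 normalized counts in Nrf2 overexpression and 2243, 2101 and 2329 in control. For both genes the lowest Nrf2 overexpression library was replicate 1, and it still exceeded every control library. The mean of sas was 8195 ± 820 in Nrf2 overexpression and 5557 ± 256 in control (SD, n = 3 each), a 1.47-fold difference with a log2 fold change of 0.56 (SE 0.10, edgeR adjusted p = 0.00107). That of Ptp10D was 4881 ± 617 in Nrf2 overexpression and 2225 ± 115 in control (SD, n = 3 each), a 2.19-fold difference with a 95% interval from 1.85 to 2.6. Its log2 fold change of 1.13 (SE 0.11, edgeR adjusted p = 2.74e-05) was the largest of the 7 and exceeded that of 94.1% of the genes tested. The sas to Ptp10D ratio of counts per kb was 2.41, 2.24 and 2.4 in Nrf2 overexpression and 3.64, 3.62 and 3.22 in control, a log2 difference of -0.57, with the exact permutation p given above.

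Ptp4E, the close paralog of Ptp10D, was higher as well, with 2463 ± 255 normalized counts in Nrf2 overexpression and 1302 ± 148 in control (SD, n = 3 each) and a log2 fold change of 0.92 (SE 0.11, edgeR adjusted p = 8.5e-05). Reads that fit both paralogs could have been counted on either, so their separate values are uncertain. Of 6 genes listed for Sas and Ptp10D signalling, Ptp4E among them, 3 were higher and 1 lower, where 30.9% of all genes were higher and 31.6% lower. The lower gene was drk, an adaptor of receptor tyrosine kinases, at a log2 fold change of -0.27. Egfr, the receptor whose signalling Ptp10D restrains, was not called at 0.15 (95% interval -0.15 to 0.44).

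Other genes with known roles in competition were examined for context. Xrp1, a transcription factor that drives the loser state of Minute cells, rose most of the 4 genes tested from that setting, to 17271 ± 3357 normalized counts in Nrf2 overexpression, against 6568 ± 121 in control (SD, n = 3 each), with a log2 fold change of 1.39 (SE 0.14, edgeR adjusted p = 3.05e-05). The caspase gene Dcp-1 was lower at -0.29, and RpS3 was not called at 0.15 (95% interval -0.11 to 0.41). Of 6 genes of Toll-type competition signalling tested, 2 were higher and 4 were not called, where 30.9% of all genes were higher and 31.6% lower. 18w, also listed, could not be matched to an identifier by name. Toll-9, with at most 4 counts in any library, could not be tested. The count is thus of part of the list. Toll-7 rose most among the called genes, with a log2 fold change of 0.38, and Tollo was not called at 0.09. Nmdar1 and Nmdar2, the NMDA receptor genes, had at most 12 counts in any library and could not be tested.

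Per exon length, the order of the 7 genes differed between the genotypes. In Nrf2 overexpression, the mean number of counts per kb of exon, scaled to the effective library size as RPKM values are, was highest for sas (79.1 ± 7.91), followed by Max (46.0 ± 4.91), Ptp10D (33.7 ± 4.26), mahj (25.2 ± 3.75), fwe (24.9 ± 1.32), Myc (20.6 ± 3.86) and Mnt (5.73 ± 1.15; SD, n = 3 each). In control, Max came first (55.8 ± 2.73), followed by sas (53.6 ± 2.47), fwe (39.2 ± 0.98), mahj (22.6 ± 1.70), Ptp10D (15.4 ± 0.794), Myc (11.7 ± 1.41) and Mnt (4.53 ± 0.911; SD, n = 3 each). Neighbouring genes overlapped in their libraries for mahj and fwe and for fwe and Myc in Nrf2 overexpression, and for Max and sas in control. The level of Ptp10D exceeded that of 70.2% of the genes tested in Nrf2 overexpression and of 44.9% in control. That of Myc exceeded 53.5% in Nrf2 overexpression and 37.1% in control, and that of fwe exceeded 59.8% in Nrf2 overexpression and 73.5% in control. Lengths are those of all annotated exons, so a gene whose longer transcripts are not made in the disc is understated.

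**Figure D3:**
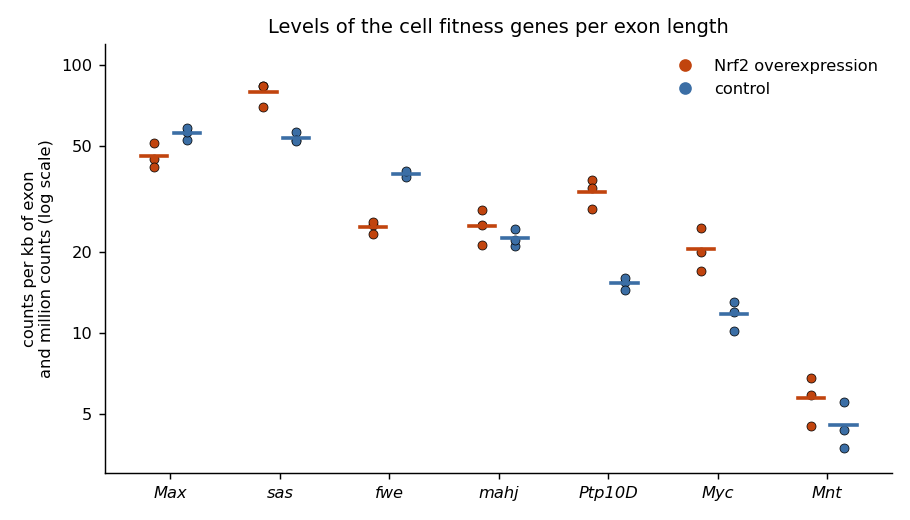
Level of each cell fitness gene in counts per kb of exon scaled to library size (y axis, log scale), with points for the libraries and lines for the means; Nrf2 overexpression stands left of control for each gene, and genes are sorted by their control level. sas and Ptp10D are higher and fwe is lower in Nrf2 overexpression, with a mean of 33.7 in Nrf2 overexpression and 15.4 in control for Ptp10D.

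The fold changes of the 7 genes were set beside their exon length. Across the genes tested, the log2 fold change rose with the log2 of exon length at a slope of 0.206, and the median exon length was 2153 bases. The 3 higher genes have exons of 9170 bases (Myc), 8708 (Ptp10D) and 6236 (sas), and the lower genes 3020 (fwe) and 1289 (Max). Of the lower genes, fwe is longer than the median and Max is shorter. Mnt and mahj, which were not called, have 4556 and 5346 bases. The slope of a library's log2 levels on exon length, relative to the mean of the 6 libraries, was 0.004, 0.147 and 0.165 in Nrf2 overexpression replicates 1 to 3, and -0.038, -0.153 and -0.124 in the control replicates. Myc, Mnt and mahj ranked their libraries in this same order within each genotype, lowest in Nrf2 overexpression replicate 1 and highest in 3, and lowest in control replicate 2 and highest in 1, and so did cnc. Max ranked its libraries in the reverse order within Nrf2 overexpression. The part of the length trend in these values was not tested beyond its removal, given next.

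With the trend removed, Myc, sas and Ptp10D were still called higher and fwe lower. Of all genes tested in that fit, 29.3% were higher and 32.7% lower, so that 3 higher and 1 lower of 7 is again close to the background. The log2 fold change of Myc was 0.39 (SE 0.09, edgeR adjusted p = 0.00318), below the lower bound of 0.50 of its interval before removal. That of sas was 0.25 (edgeR adjusted p = 0.00742) and that of Ptp10D 0.73 (edgeR adjusted p = 4.31e-05). fwe kept its size, at -0.74 (edgeR adjusted p = 1.97e-05). Max was no longer called, at -0.13 (edgeR adjusted p = 0.082), and mahj changed sign to -0.12 without being called (edgeR adjusted p = 0.182). Among the nucleolar and RNA polymerase I genes, 11 of 12 were lower in this fit as well, with a median of -0.82. Among the Myc partners and regulators, 4 were higher and 5 lower. Of the polarity genes, l(2)gl kept its call at 0.54 (edgeR adjusted p = 9.52e-05), whereas scrib and dlg1 lost theirs. Roc1a (0.26), RpS3 (0.35) and Irbp18 (0.71), the partner of Xrp1, gained a call as higher in this fit. Psi (-0.62), ago (-0.31) and brat (-0.22) of the Myc regulators, Cul4 (-0.21) and Tollo (-0.26) gained a call as lower, Tollo and brat with a change of sign. Irbp18, Cul4, Psi and ago were picked once their values were known. Toll-7 lost its call, at 0.06. So did Kdm5 (0.03) and Nipped-A (0.02) of the Myc partners and RasGAP1 (0.02) of the Sas and Ptp10D list, also picked once their values were known. Not every changed call is given here.

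**Figure D4:**
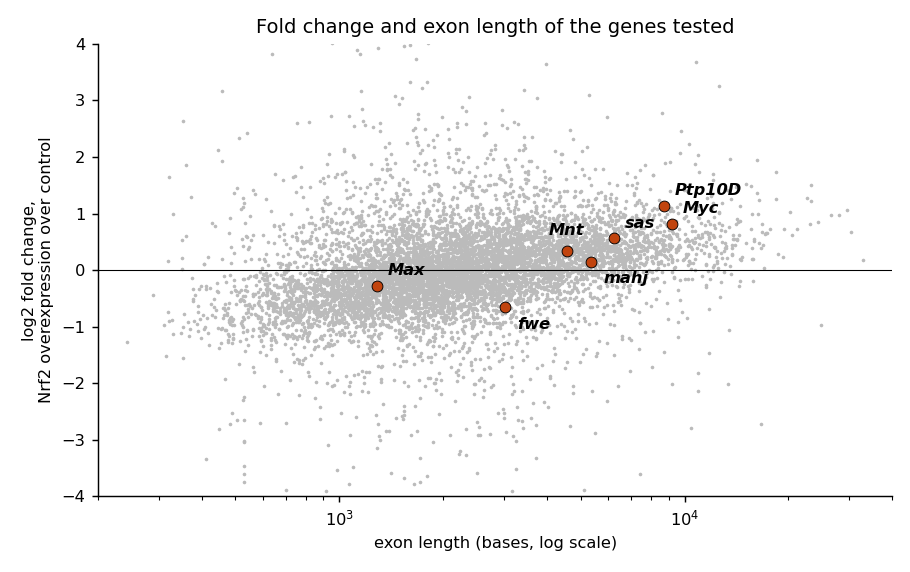
Log2 fold change (y axis, Nrf2 overexpression over control) against exon length in bases (x axis, log scale) for the 8159 genes tested that have an annotated length, in grey, with the 7 cell fitness genes in orange; 67 genes fall outside the axes. Long genes lie higher on average, and fwe lies below and Ptp10D above most genes of like length.

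**Figure D5:**
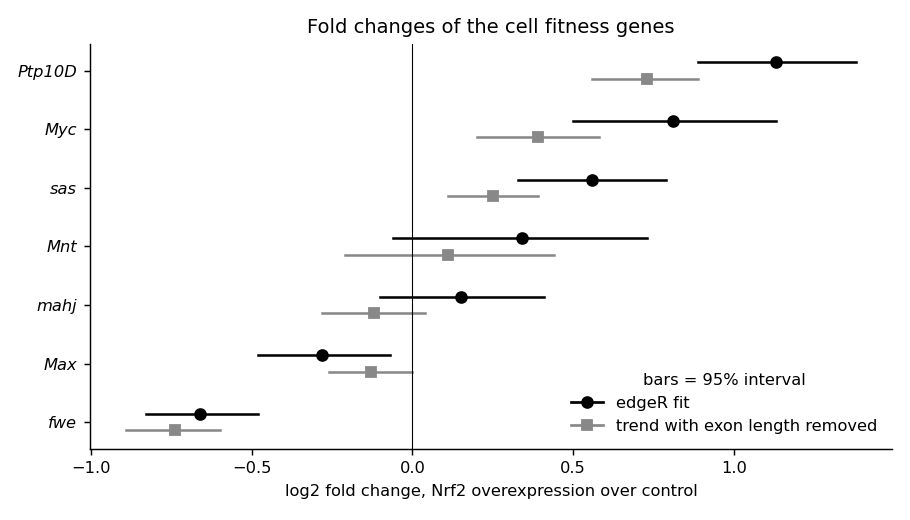
Log2 fold changes (x axis, Nrf2 overexpression over control) of the 7 cell fitness genes with 95% intervals, in the edgeR fit (black circles) and after removal of the trend with exon length (grey squares). Ptp10D, Myc and sas stay above 0 and fwe below 0 in both fits, whereas Mnt and mahj span 0 in both.

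The genes whose levels over the 6 libraries were most like those of each member were found by Pearson's r of log2 normalized counts, among 7436 other genes that averaged 50 or more normalized counts. They were Ppa and CG4294 for Myc (r = 0.9993 and 0.9991), Rtnl1 and OstDelta for fwe (0.9998 and 0.9988), and heca and Nct for Ptp10D (0.9993 and 0.9986). For sas they were Dys and Atg2 (0.9992 and 0.9989), for Max hui and Psf2 (0.998 and 0.996), for Mnt kuz and Gprk2 (0.9973 and 0.9943), and for mahj Su(var)2-HP2 and kug (0.999 and 0.9918). These values share 6 libraries, their genotypes and the length trend, and r was at least 0.95 for 1177 genes with fwe but for 87 with mahj.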

How the data were processed

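The authors deposited raw counts of reads per gene for each library, as whole numbers without normalization. Per the labels, FastQC 0.11.5, Bowtie and the build BDGP6 were used; the counting tool and its use of strand are not given in the sources used here. A table of the whole series with the same values was not used. TruSeq libraries started from 500 ng of RNA; separate cultures or animals are not stated, so p-values measure the spread between these samples. Symbols came from a table of gene names, and coordinates and exon lengths from Ensembl release 115 (BDGP6.54), by identifier, for 13661 of 13955 genes; RpS12, 18w, ap, wg, btl and br could not be matched by name and were not analysed here.

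Counts were scaled by TMM, filtered with filterByExpr and tested by the quasi-likelihood method of edgeR 4.0.16 (R 4.3.3), with Benjamini-Hochberg adjustment. Normalized counts were scaled to the mean effective library size. Standard errors and 95% intervals came from the fit's F statistic. Alternatives were other scalings, DESeq2 1.42.0, limma-voom (limma 3.58.1), other filters and thresholds, a replicate block, single libraries left out, and removal of the length trend by loess (span 0.5) within each library. Those for the gene lists, and the length trend for the ratios, were added once the data had been seen. Of these fits, only the main edgeR fit, DESeq2, limma-voom and the removal of the length trend were also run on simulated data. The spread between simulated libraries was the same for every gene, a coefficient of variation of 0.115, the common value found in the real data. No length trend was simulated, so its removal was not tried on such a trend. In these simulated data edgeR recovered 59.7% of changes with a log2 size of 0.5. The 7 members and the gene lists were chosen with earlier results of these data known. For each list, the genes named by rule are the largest called rise and fall and the most abundant gene not called. Genes named beyond this rule include some picked once their values were known, which are marked where they appear.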

Additional observations from a re-analysis of the deposited data

How the results depend on the processing

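Under 15 alternatives each, Myc, fwe, sas and Ptp10D kept their direction and their call, with log2 fold changes from 0.39 to 0.93 for Myc, from -0.74 to -0.60 for fwe, from 0.25 to 0.65 for sas and from 0.73 to 1.24 for Ptp10D, and cnc from 5.66 to 6.36. Max was lower in all 15 but passed the threshold in 8; it was not called with total counts only (-0.22), the replicate block (-0.28) or the length trend removed (-0.13), and ranged from -0.36 to -0.20 with single libraries left out. Mnt ranged from 0.21 to 0.50 and mahj from 0.07 to 0.27 with single libraries left out, and mahj was -0.12 with the length trend removed. The number of members higher ran from 3 to 5 (Mnt and mahj were added without Nrf2 overexpression replicate 1) and lower from 1 to 2 with single libraries left out. A single member was lower (1) with total counts only, the replicate block, the length trend removed, an adjusted p-value under 0.01 or a fold change of at least 1.4. That fold limit left 1711 genes higher and 1760 lower among all genes, by its own construction; the cause of the other changes was not tested. Same-numbered libraries did not deviate together (correlation of -0.209 for number 1, 0.088 for number 2 and 0.127 for number 3, computed over genes that are not independent), and not every library correlated best with its own number; the replicate block changed no other member's call. Myc partners and regulators called lower were 5 with the length trend removed. With single libraries left out, which cannot turn groups that do not overlap, the log2 ratio differences ran from -1.29 to -0.88 for Max to Myc, from -0.51 to -0.39 for Mnt to Myc and from -0.63 to -0.54 for sas to Ptp10D; scaling cancels in a ratio. With the length trend removed, an alternative added after seeing the data, they were -0.52, -0.27 and -0.48. The members had 270 or more counts in every library. Too few counts for a test were found for azot, Toll-9, the NMDA receptor genes and the haemocyte markers NimC1, eater and He. Whether this reflects depth or absence of their RNA was not tested.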
